A study of Mus musculus with 12 samples.

Results

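The genes described are 10 members of the circadian clock output: the REV-ERB receptors Nr1d1 and Nr1d2, the PAR-bZIP activators Dbp, Tef and Hlf, the repressor Nfil3, and Usp2, Ciart, Bhlhe40 and Bhlhe41. They were chosen by gene symbol from the 55335 genes of the count table, and each symbol had 1 row, so that no measured value decided which row was taken. The set was put together with results of these data known, and its genotype differences are therefore a description of these libraries. The data were RNA-seq read counts from 12 mouse libraries in 4 groups of 3, all from the C57BL/6N background and all carrying the floxed Tshr allele, the gene of the thyrotropin (TSH) receptor. Bone marrow-derived macrophages (BMDMs) came from male Tshrf/f mice (f/f) or Tshrf/f,Lyz2-Cre mice (MKO) that were 6 weeks old by the labels and 6 to 8 weeks by the methods, were grown for 7 days with M-CSF at 10 ng/mL, and all received TSH at 1 ng/mL for 24 hours, so that no library without TSH entered a comparison. Livers came from male f/f or MKO mice that were 6 weeks old when a high-fat diet of 9 weeks began, and that were given insulin at 1.5 U/kg for 5 minutes after 8 hours of fasting. The Lyz2 promoter drives Cre in myeloid cells, so hepatocytes of MKO livers keep the receptor gene, and a liver library holds RNA of all its cells. The study's methods name littermates of both genotypes and 3 mice per group, but not which BMDM library came from which mouse, and the p-values measure only the spread between these libraries. The hour at which cells and livers were collected is not given in the sources used here.

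The clock is a loop in which CLOCK and BMAL1 (Arntl) bind E-box motifs and switch on their own repressors, the Per and Cry genes, together with output genes such as Nr1d1 and Dbp. REV-ERB proteins are heme-binding nuclear receptors that repress Arntl, Nfil3 and other genes through corepressors, and in macrophages they are known to repress inflammatory genes. DBP, TEF and HLF activate genes through D-box motifs that NFIL3 can occupy as a repressor, and in liver they drive genes of detoxification. The levels of most of these output genes rise and fall steeply over the day.

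Depth was 33683981 to 40954211 counts in BMDM libraries and 28962878 to 40420513 in livers. Tshr had 0 to 2 counts in f/f BMDMs, 0 to 5 in MKO BMDMs and 0 in every liver, so it could not check the genotype labels. The study's own listing of receptor counts gives the liver libraries under the opposite genotype headings, and the direction of each liver genotype difference below rests on the sample labels. Of 8 macrophage markers, all had counts in every BMDM library, and of 8 hepatocyte markers, all had counts in every liver and at least 6 were at 0 in each BMDM library. BMDM libraries also held RNA of stellate cell and fibroblast markers, among them collagen genes, although Lrat, 1 of the 6 listed, had 0 counts in each. These summed to 1107, 2661 and 1057 CPM in f/f and 1091, 1355.5 and 676 CPM in MKO libraries, and their part in the results was not tested. BMDM f/f replicate 3 stood apart from the rest, with a TMM scaling factor of 0.738 against 0.993 to 1.11 in the other BMDM libraries.

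Promoter sequence was available for 9 of the members, as windows of 250 bases before to 50 after the transcript start in RefSeq (GRCm38.p6), with a pair of windows for Tef. The E-box CACGTG was found in 3 of these 9 genes, Tef, Ciart and Bhlhe41, and in 7.15% of all 32851 windows of this length. Ciart, which encodes a repressor of CLOCK and BMAL1, held 3 copies, and 0.0883% of all windows held 3 or more. The related motif CACGTT, searched on both strands like the others, was found once among the members, in Nr1d1, and in 4.68% of all windows. The stretches below lie before the RefSeq transcript start of their window and show these motifs in capitals, since they are the elements through which the clock is known to act on such genes. The gene positions given further on come from GENCODE. Each Tef stretch lies inside the GENCODE span of Tef, and the Bhlhe41 stretch overlaps the edge of its span. In Nr1d1 the capitals are the reverse complement of CACGTT.
Nr1d1, chr11:98775388-98775417, minus strand: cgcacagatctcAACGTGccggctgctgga
Tef, chr15:81802534-81802563, plus strand: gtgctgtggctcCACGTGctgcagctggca
Tef, chr15:81811264-81811293, plus strand: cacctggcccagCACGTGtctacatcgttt
Ciart, chr3:95882255-95882356, minus strand: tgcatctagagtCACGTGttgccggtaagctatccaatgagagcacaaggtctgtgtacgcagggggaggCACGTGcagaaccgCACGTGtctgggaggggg
Bhlhe41, chr6:145865556-145865585, minus strand: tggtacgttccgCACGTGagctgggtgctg
The D-box TTATGTAA, found in 0.938% of all windows, was in none of the member windows. The nuclear receptor motif AGGTCA was found in Nr1d2 and Nfil3 and in 16.3% of all windows.

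In BMDMs, the REV-ERB receptors, Dbp, Tef and Usp2 were higher in every MKO library than in any f/f library. The levels below are CPM, read counts scaled to a library total of 1000000 with TMM factors within the tissue, in the order of replicates 1, 2 and 3. Nr1d1 (chr11:98767932-98775333), the receptor REV-ERB alpha, was at 2.56, 2.61 and 2.00 CPM in f/f and at 11.7, 8.86 and 8.27 CPM in MKO cells. The MKO libraries lay far above the f/f libraries, and the log2 fold change was 2.00 ± 0.23 (SE), which ranked 5 by p among 15372 genes. Nr1d2 (chr14:18204054-18239127), REV-ERB beta, was at 36.7, 21.5 and 27.5 CPM in f/f and at 67.6, 55.5 and 54.0 CPM in MKO cells, a log2 fold change of 1.05 ± 0.22. For both receptors the groups did not overlap, and the unadjusted edgeR quasi-likelihood p was 9.3e-05 for Nr1d1 and 0.0025 for Nr1d2.

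Of the PAR-bZIP activators, Dbp moved furthest and Hlf was barely detected. Dbp (chr7:45705088-45710203) was at 1.93, 1.60 and 0.845 CPM in f/f and at 7.44, 5.68 and 5.76 CPM in MKO cells, a log2 fold change of 2.09 ± 0.35 (unadjusted p = 0.00078, edgeR). Tef (chr15:81802421-81826863) was at 20.5, 25.1 and 8.18 CPM in f/f and at 46.7, 43.7 and 36.4 CPM in MKO cells, a log2 fold change of 1.24 ± 0.39 (unadjusted p = 0.018, edgeR). For both genes the lowest library was f/f replicate 3 and the highest was MKO replicate 1. Hlf (chr11:90336536-90390895) had only 4, 11 and 4 counts in f/f and 19, 19 and 8 in MKO libraries, so the groups overlapped. Its log2 fold change of 1.21 ± 0.60 did not pass the test (unadjusted p = 0.086, edgeR).

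Nfil3 (chr13:52967209-52981073), the repressor that shares the D-box with these activators, differed in the other direction. It was at 38.5, 81.5 and 140 CPM in f/f and at 14.0, 14.9 and 51.0 CPM in MKO cells, a log2 fold change of -1.70 ± 0.67 (unadjusted p = 0.043, edgeR). The groups overlapped, because MKO replicate 3 lay above f/f replicate 1, and the unadjusted p was above 0.05 when f/f replicate 2 or 3 or MKO replicate 1 or 2 was left out. Within a library, the ratio of Dbp to Nfil3 counts needs no scaling between libraries. It was 0.0502, 0.0197 and 0.00602 in f/f and 0.533, 0.382 and 0.113 in MKO cells, so every MKO library lay above every f/f library. Replicate 3 was the lowest of its group in both genotypes.

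**Figure D1:**
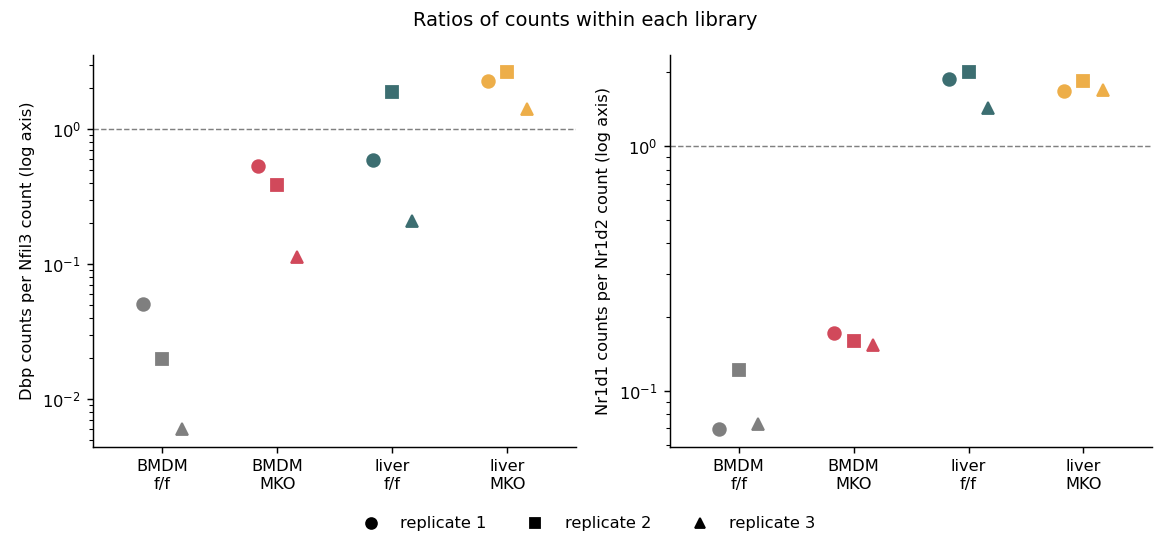
Counts of Dbp per count of Nfil3 (left) and of Nr1d1 per count of Nr1d2 (right) in each of the 12 libraries, on log axes, with a marker per replicate and a dashed line at a ratio of 1. The Dbp ratio is below 1 in all 6 BMDM libraries and spans 0.208 to 1.87 in f/f livers, and the Nr1d1 ratio is below 1 in every BMDM library and above 1 in every liver.

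Usp2 (chr9:44067021-44095627), a deubiquitinase that follows the clock in many tissues, was at 3.41, 2.66 and 1.42 CPM in f/f and at 7.05, 7.81 and 5.59 CPM in MKO cells. The groups did not overlap, and its log2 fold change was 1.44 ± 0.36 (unadjusted p = 0.0059, edgeR). The remaining members are repressors that act on CLOCK and BMAL1 or compete for the E-box, and their groups overlapped. Ciart (chr3:95878503-95882251) was at 1.53 to 2.89 CPM in f/f and 2.35 to 3.78 CPM in MKO cells, a log2 fold change of 0.52 ± 0.34. Bhlhe40 (chr6:108660629-108666925, DEC1) was at 94.8, 105 and 239 CPM in f/f and 139, 141 and 160 CPM in MKO cells, with f/f replicate 3 above all others and a log2 fold change of 0.00 ± 0.37. Bhlhe41 (chr6:145858243-145865558, DEC2) was at 46.3 to 78.3 CPM in f/f and 46.2 to 76.5 CPM in MKO cells, a log2 fold change of 0.18 ± 0.28.

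Counted together, 5 of the 10 members were higher and 1 was lower in MKO BMDMs at an unadjusted p under 0.05, where 7.73% of the 15372 genes tested were higher and 10.2% lower. The same 5 and 1 also passed a fold of 2, as did 3.3% of all genes upwards and 5.52% downwards, and without MKO replicate 1 the members that did were 3 and 0. The groups did not overlap for 5 members, all higher, and for 14.8% of all genes that were higher and 14% that were lower. The median log2 fold change of the members was 1.13, against 0.01 for all genes tested. No member passed an adjusted p under 0.05 with edgeR, nor did any other gene in either direction (0% of those tested), although 1189 genes were higher and 1567 lower before adjustment. The adjusted p was 0.218 for Nr1d1, Nr1d2, Dbp and Usp2, 0.231 for Tef and 0.266 for Nfil3. With DESeq2, 520 genes were called higher and 696 lower at an adjusted p under 0.05, and 5 members were among the higher ones: Nr1d1 (1.5e-11), Dbp (1.3e-06), Nr1d2 (0.0040), Usp2 (0.0041) and Tef (0.042). When all 12 libraries shared 1 edgeR fit, the adjusted p was 0.013 for Nr1d1 and 0.044 for Nr1d2, and 65 genes were called higher and 85 lower of 17246.

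**Figure D2:**
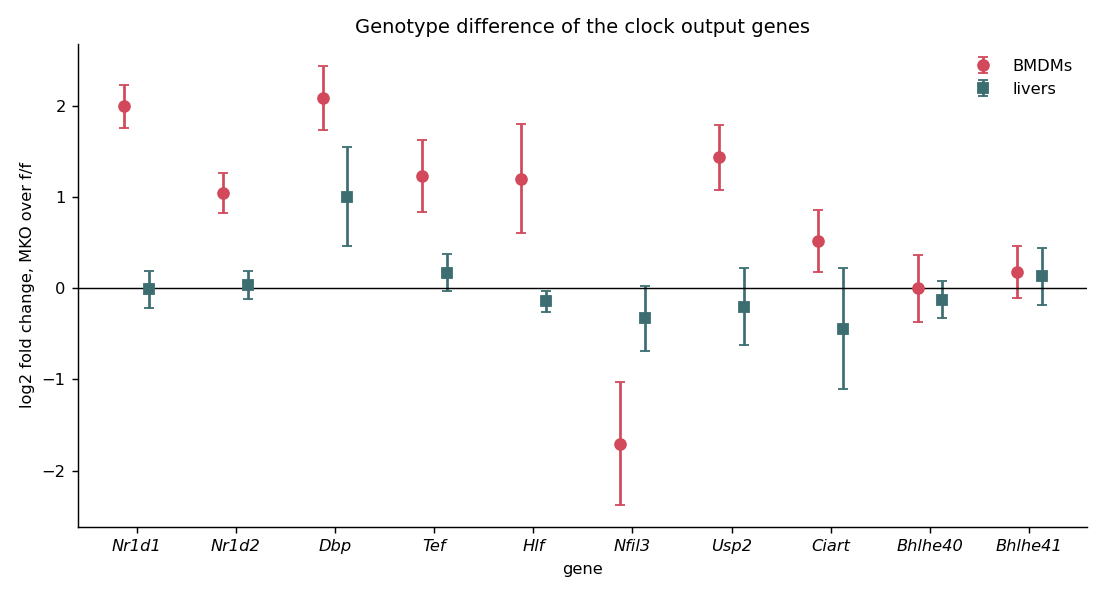
Log2 fold change of MKO over f/f with its SE for each member, in BMDMs (circles) and livers (squares), from edgeR fits of 6 libraries per tissue. In BMDMs Dbp (2.09) and Nr1d1 (2.00) are highest and Nfil3 (-1.70) is lowest, while in livers 9 of the 10 values lie between -0.44 and 0.17 and Dbp is at 1.01.

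Other measurements of the BMDM libraries moved with the genotype. The summed level of the inflammatory list, Tnf, Il1a, Il1b, Il6, Nos2, Ptgs2, Cxcl10 and Ccl5, was 3508, 1678 and 38028 CPM in f/f and 153, 150 and 414 CPM in MKO cells, and replicate 3, with the highest Nfil3, had the highest sum in both genotypes. All 8 of these genes were lower at an unadjusted p under 0.05, with groups that did not overlap and a median log2 fold change of -5.89. The sum of 8 macrophage markers was 15553 to 16562 CPM in f/f and 21601 to 31907 CPM in MKO cells, and none of the markers was at 0. Lyz2, whose promoter drives Cre, made up most of it, and the sum of the other 7 markers was 6718 to 7188 CPM in f/f and 7064 to 9587 CPM in MKO cells, so the groups overlapped. Among these, Mrc1 was higher (log2 fold change 2.13 ± 0.43), and Adgre1 (-0.30 ± 0.20) and Itgam (-0.51 ± 0.48) had negative values that did not pass the test. For Adgre1 the groups nevertheless did not overlap, with every MKO library below every f/f library. C1qb (0.93 ± 0.42) did not pass the test either, but was higher in every MKO library. The part of these measures in the members' differences was not tested. Without f/f replicate 3, the log2 fold change was 1.89 for Nr1d1 and 1.83 for Dbp. Some members share exon bases with a gene on the opposite strand, and whether the counting used strand is not given in the sources used here. Thra shares 263 bases with Nr1d1, which is 8.55% of its exon length, and its log2 fold change in BMDMs was 0.31 ± 0.18 with groups that overlapped. Sphk2 shares 539 bases with Dbp, 18% of its exon length, and its log2 fold change in BMDMs was 0.14 ± 0.16. Gm49380 shares 200 bases with Usp2, 4.15% of its exon length, and had 0 counts in each f/f BMDM library and 130, 142 and 0 in MKO libraries, where Usp2 had 270, 293 and 232.

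In livers, no member differed between genotypes at an unadjusted p under 0.05. Nr1d1 was at 115, 130 and 79.6 CPM in f/f and at 101, 94.4 and 127 CPM in MKO livers, so the groups overlapped, with a log2 fold change of -0.01 ± 0.20. Nr1d2 was at 60.8, 65.1 and 55.4 CPM in f/f and at 59.9, 51.3 and 75.3 CPM in MKO livers, a log2 fold change of 0.04 ± 0.15. The spread of Nr1d2 over the 6 livers was 1.47-fold from lowest to highest. In a tissue sample, fewer cells of a type and less RNA per cell cannot be told apart.

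Dbp had the largest difference of the members in liver, with a wide spread. It was at 19.9, 44.6 and 8.16 CPM in f/f and at 48.5, 42.3 and 55.7 CPM in MKO livers, a log2 fold change of 1.01 ± 0.54 (unadjusted p = 0.11, edgeR). The MKO livers lay close together, the f/f livers lay wide apart, and f/f replicate 2 lay above MKO replicate 2. Sample IDs of the livers begin with A (f/f 1 and 2, MKO 3) or B (f/f 3, MKO 1 and 2), and the labels do not say what the letter means. The mean of Dbp was higher in MKO under both letters, at 55.7 against 32.3 CPM under A and 45.4 against 8.16 CPM under B, with no more than 2 livers per genotype in each. With the letter as a factor the log2 fold change was 1.61 ± 0.53 (unadjusted p = 0.025, adjusted p = 0.47, edgeR), and with DESeq2 it was 1.00 (unadjusted p = 0.039, adjusted p = 0.36).

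Tef was at 105, 143 and 83.0 CPM in f/f and at 126, 110 and 137 CPM in MKO livers, a log2 fold change of 0.17 ± 0.20. Hlf, at 57.3 ± 6.97 CPM (SD, n = 3) in f/f and 52.1 ± 3.66 CPM in MKO livers, varied least, and its highest liver was 1.29-fold its lowest. Nfil3 was at 33.7, 23.9 and 39.3 CPM in f/f and at 21.3, 16.1 and 39.7 CPM in MKO livers, a log2 fold change of -0.33 ± 0.36. The Dbp to Nfil3 ratio was 0.590, 1.87 and 0.208 in f/f and 2.27, 2.62 and 1.40 in MKO livers, and the groups overlapped.

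Usp2 and Ciart in livers depended on 1 library. Usp2 was at 13.6, 39.6 and 13.8 CPM in f/f and at 20.1, 19.1 and 19.2 CPM in MKO livers, and Ciart was at 15.8, 48.9 and 7.27 CPM in f/f and at 13.6, 14.3 and 25.3 CPM in MKO livers. In both genes f/f replicate 2 was the highest of all 6 livers. Their log2 fold changes were -0.20 ± 0.42 and -0.44 ± 0.66, and turned to 0.50 (unadjusted p = 0.0024, edgeR) and 0.62 (unadjusted p = 0.19, edgeR) without that library. Without it, Dbp was at 1.798 (unadjusted p = 0.0030, edgeR) and Tef at 0.40 (unadjusted p = 0.029, edgeR) on the log2 scale, with adjusted p-values of 0.14 to 0.56 for these 4 genes. The same library also had the highest Nr1d1, Tef, Hlf and Bhlhe40, whereas f/f replicate 3 had the lowest Nr1d1, Dbp, Tef and Ciart. The summed level of the 8 macrophage markers was also highest in f/f replicate 2, at 501 CPM against 181 to 449 CPM in the other livers. The 8 hepatocyte markers summed to 104070 CPM there against 83385 to 97918 CPM in the other livers, and Alb made up 69730 CPM of that sum. Of these markers, Alb, Apoa1 and Tat were at their highest in f/f replicate 2, whereas Fgb and Apob were at their lowest there. Sums of Kupffer cell, stellate cell and fibroblast, and lymphocyte markers peaked there too. Neutrophil markers peaked in f/f replicate 1, and endothelial and cholangiocyte markers in f/f replicate 3. The part of cell content in the result was not tested. Bhlhe40, at 99.5 to 145 CPM in f/f and 83.2 to 127 CPM in MKO livers, and Bhlhe41, at 2.56 to 3.49 CPM and 1.98 to 3.88 CPM, also overlapped.

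Of the 10 members, 0 were therefore higher and 0 lower in MKO livers at an unadjusted p under 0.05, where 5.27% of the 15062 genes tested were higher and 5.18% lower. None passed that p with a fold of 2, as 0.69% of all genes did upwards and 0.856% downwards. For none of them were the groups apart, as they were for 9.6% of genes that were higher and 7.74% that were lower. After adjustment 0 genes passed in either direction with edgeR (0%), among them 0 members, while 794 genes were higher and 780 lower before adjustment, and DESeq2 called 124 and 142 genes but no member. The median log2 fold change of the members was -0.07, and that of all genes was -0.01.

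**Figure D3:**
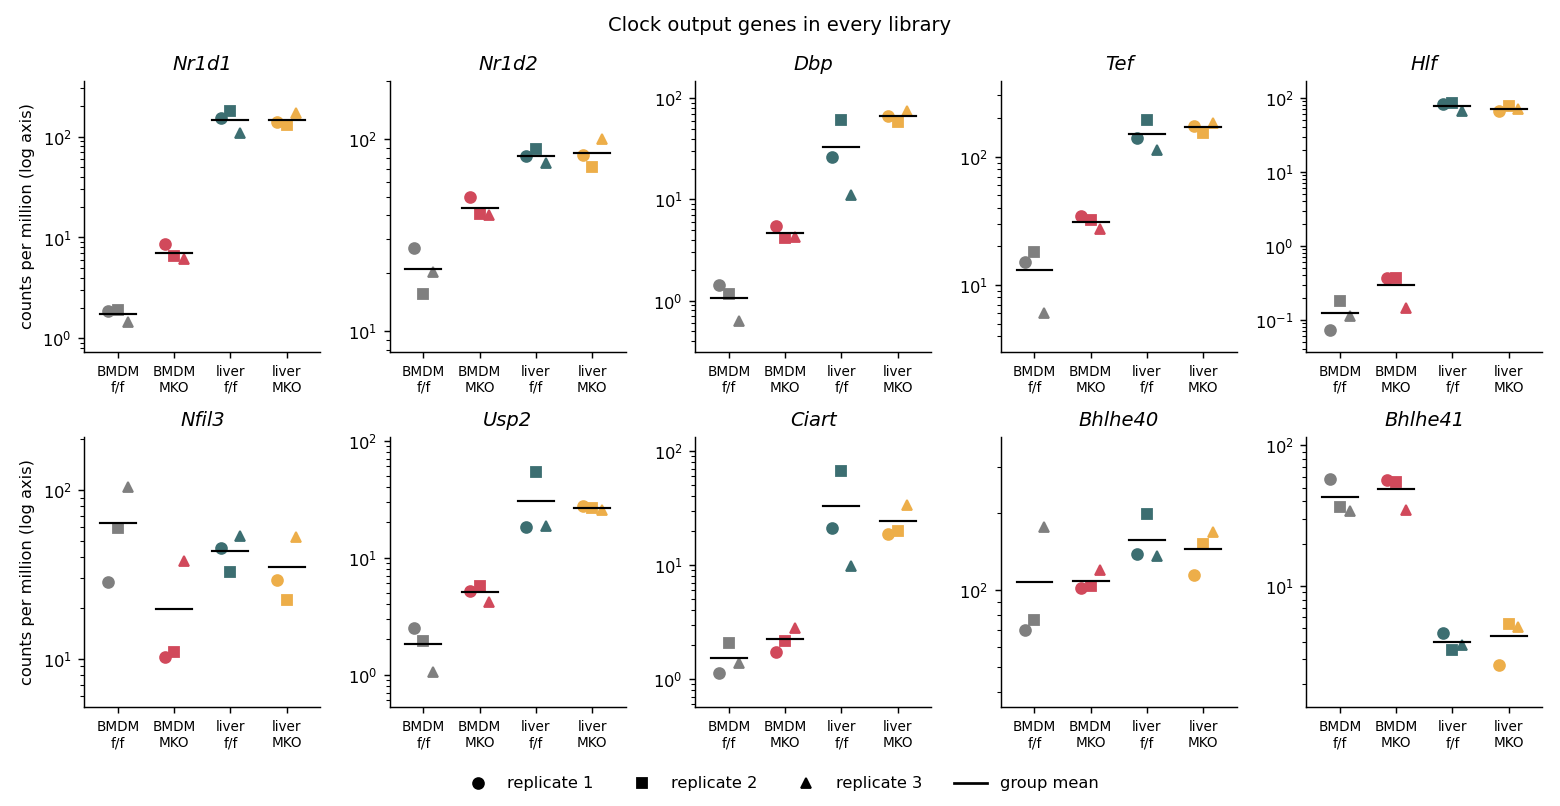
Level of each member in each library, in CPM scaled over all 12 libraries together, on a log axis whose range differs between panels. Points are libraries, with a marker per replicate, and bars are group means. Nr1d1, Nr1d2, Dbp, Tef and Usp2 stand higher in every MKO than in every f/f BMDM library, and f/f liver replicate 2 is the highest liver for Usp2 and Ciart.

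The genotype difference of Nr1d1 was smaller in liver than in BMDMs. The difference of the log2 fold changes, liver minus BMDM, was -2.01 ± 0.29 (unadjusted p = 3.7e-05, adjusted p = 0.089, edgeR with 12 libraries), which ranked 7 among 17246 genes. At an unadjusted p under 0.05 the difference was negative for 5 members, where 7.12% of all genes were negative and 7.42% positive. These were Nr1d1, Nr1d2 (-1.01 ± 0.28), Hlf (-1.32 ± 0.46), Usp2 (-1.63 ± 0.59) and Tef (-1.06 ± 0.47). Of these, Hlf had only 4 to 19 counts in each BMDM library and was called in neither tissue alone. For Dbp the difference was -1.08 ± 0.70 (unadjusted p = 0.15, edgeR), and for Nfil3 it was 1.36 ± 0.82 (unadjusted p = 0.13, edgeR). These values rest on the liver labels. With the liver genotype headings turned, the difference was -3.11 ± 0.71 for Dbp (unadjusted p = 0.0012, adjusted p = 0.20, edgeR), 2.01 ± 0.83 for Nfil3 (unadjusted p = 0.034, adjusted p = 0.32, edgeR) and -2.01 ± 0.29 for Nr1d1 (unadjusted p = 3.7e-05, adjusted p = 0.12, edgeR). No member passed an adjusted p under 0.05 in this fit, in which 0% of genes were positive and 0.0058% negative, namely Gprc5c, which was named after its value was seen. DESeq2 called Nr1d1 (1.7e-06) and Nr1d2 (0.028), both negative, among 353 positive and 448 negative genes. Without BMDM f/f replicate 1 or 2, the adjusted p of Nr1d1 in edgeR was 0.044 and 0.021.

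Between the tissues, 7 members were higher in f/f livers than in f/f BMDMs and 1 was lower at an adjusted p under 0.05 in edgeR, where 36.6% of all genes were higher and 32.7% lower. Culture, TSH, diet, fasting and insulin differ together with the tissue and cannot be told apart. Hlf differed most, with a log2 fold change of 9.23 ± 0.37, followed by Nr1d1 at 6.38 ± 0.26, Dbp at 4.91 ± 0.57, Ciart at 4.40 ± 0.65, Usp2 at 4.03 ± 0.47, Tef at 3.50 ± 0.37 and Nr1d2 at 1.96 ± 0.21. Bhlhe41 was the member that was lower in liver, by a log2 fold change of -3.43 ± 0.32. Bhlhe40 and Nfil3 were not called (0.55 ± 0.33, adjusted p = 0.16, and -0.54 ± 0.58, adjusted p = 0.42, edgeR). Without BMDM f/f replicate 3, Bhlhe40 was called too, at 1.08 (adjusted p = 0.0012, edgeR), and among MKO libraries the value of Nfil3 was 0.82.

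Levels can be compared between genes only per length, and the values that follow are CPM per kilobase of exon (mean ± SD, n = 3), scaled over all 12 libraries. By mean, Nr1d1 stood first in f/f livers, at 47.5 ± 11.4, followed by Bhlhe40 at 33.4 ± 7.43 and Nfil3 at 21.5 ± 5.18. The spreads of Nr1d1 and Bhlhe40 overlapped, as did those of Bhlhe40 and Nfil3. The spreads of Tef (19.0 ± 5.28), Nr1d2 (15.1 ± 1.25), Ciart (14.4 ± 13.3), Hlf (11.6 ± 1.38) and Dbp (10.97 ± 8.51) overlapped with those of their neighbours in this order. Usp2 was at 6.29 ± 4.26 and Bhlhe41 was last, at 0.592 ± 0.0898. In f/f BMDMs the order was led by Nfil3, at 31.4 ± 18.6, and Bhlhe40, at 22.8 ± 12.6, which did not differ beyond their spread, then Bhlhe41 at 6.36 ± 1.94 and Nr1d2 at 3.88 ± 1.07. Nr1d1 was there only at 0.569 ± 0.0790, close to Ciart (0.680 ± 0.221), Usp2 (0.380 ± 0.154) and Dbp (0.358 ± 0.137), and Hlf was last at 0.0185 ± 0.00824. Between the receptors, Nr1d1 had 0.0697 to 0.121 counts per count of Nr1d2 in f/f BMDMs, 0.153 to 0.173 in MKO BMDMs, and 1.44 to 2.00 in the livers of both genotypes. The genotype ranges of this ratio did not overlap in BMDMs.

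**Figure D4:**
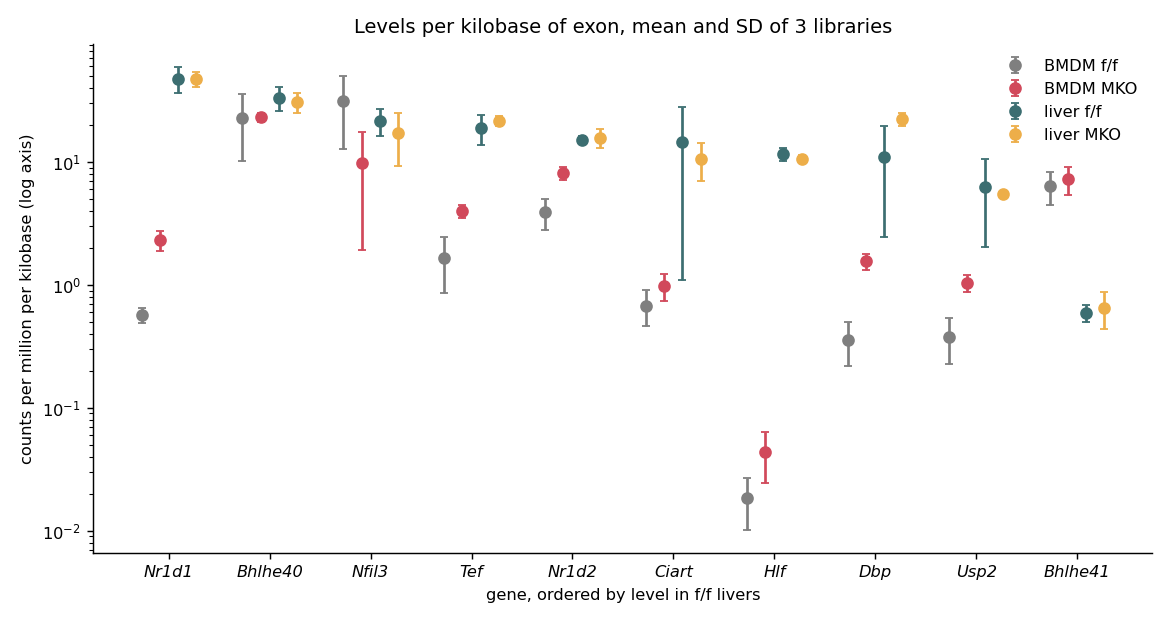
Level of each member in CPM per kilobase of exon, as the mean and SD of 3 libraries in each of the 4 groups, on a log axis, with genes ordered by their level in f/f livers. Nr1d1 leads in f/f livers at 47.5, Nfil3 leads in f/f BMDMs at 31.4, and Bhlhe41 alone is called lower in f/f livers than in f/f BMDMs.

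Genes that act with the members were followed in lists, with the test of edgeR at an unadjusted p under 0.05, since no gene of the lists passed an adjusted p under 0.05 in either genotype comparison. Of the core clock, 15 of 17 genes were tested in BMDMs, of which 1 was higher and 1 lower, with a median log2 fold change of 0.07. Cry1, a repressor of CLOCK and BMAL1 that REV-ERB is known to repress, was at 16.2, 17.2 and 26.9 CPM in f/f and at 8.77, 7.18 and 9.86 CPM in MKO cells, a log2 fold change of -1.22 ± 0.25. The kinase gene Csnk1e was higher by 0.39 ± 0.10. Arntl itself was at 11.3 to 15.7 CPM in f/f and 12.7 to 15.2 CPM in MKO cells, so the groups overlapped.

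In livers, 16 core clock genes were tested, of which 3 were higher and 4 lower, with a median log2 fold change of -0.12. Arntl was at 13.6, 6.87 and 17.02 CPM in f/f and at 6.87, 6.69 and 4.85 CPM in MKO livers, a log2 fold change of -1.02 ± 0.34 with groups that overlapped slightly. The f/f liver with the lowest Dbp, replicate 3, had the highest Arntl, and the f/f liver with the highest Dbp, replicate 2, had the lowest Arntl of its group. Rora, whose product activates through the motif that REV-ERB occupies, fell by 0.59 on the log2 scale and Cry2 by 0.50, both without overlap. Dbp was not called in the same livers, as given above.

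Of the REV-ERB target genes, a list that also holds Nfil3, Cry1 and Il6, 13 of 14 were tested in BMDMs, of which 1 was higher and 6 lower, with a median of -0.28. Mmp9, a matrix protease, was lower by a log2 fold change of -1.90 ± 0.47, and Il6, which is in the inflammatory list too, by -9.16 ± 2.13. Lpl, the lipoprotein lipase, was the gene that was higher, at 2.15 ± 0.64, and Ccl2 was also lower. In livers 1 of 13 tested was higher and 2 lower, with a median of -0.33, and the lower genes were Arntl and the fatty acid elongase gene Elovl3 (-0.44 ± 0.15).

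The heme list holds genes of the synthesis and of the breakdown of heme, the ligand of REV-ERB. In BMDMs 1 of its 12 genes was higher and 2 were lower, and all of these act in breakdown. No synthesis gene was called there. Hmox1, the heme oxygenase, was at 750, 1472 and 3591 CPM in f/f and at 696, 549 and 407 CPM in MKO cells, a log2 fold change of -1.81 ± 0.59. The biliverdin reductase gene Blvrb was at -0.999 ± 0.34 and Blvra at 0.34 ± 0.13. In livers the synthesis genes Alad (0.36 ± 0.08) and Ppox (0.26 ± 0.09) were higher and none was lower. Of the corepressor genes, Tbl1xr1 (0.53 ± 0.21) was higher in MKO BMDMs and Hdac3 (0.32 ± 0.13) in MKO livers.

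Of the PAR-bZIP target genes, which include Per2 and Per3, 5 of 10 were tested in BMDMs and 0 were called by edgeR at an unadjusted p under 0.05, with a median of 0.18. In livers 9 were tested, of which 3 were higher and 1 lower, with a median of 0.69. Nr1i3, the nuclear receptor CAR, was at 212, 250 and 204 CPM in f/f and at 325, 422 and 283 CPM in MKO livers, a log2 fold change of 0.63 ± 0.17. Per2 (0.92 ± 0.30) and Per3 (0.91 ± 0.35) were higher and overlapped between groups, and Por, the reductase that serves cytochrome P450 enzymes, was lower (-0.60 ± 0.23).

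Glucocorticoids and hypoxia also act on clock genes, and lists of their responses were set beside the members. In MKO BMDMs 2 of 7 tested glucocorticoid response genes were higher, Zbtb16 (2.30 ± 0.48) and Tsc22d3 (1.73 ± 0.54), and 3 of 8 hypoxia response genes were lower, Slc2a1 (-2.30 ± 0.55), Bnip3 (-1.55 ± 0.57) and Egln3 (-1.86 ± 0.69). In MKO livers 5 of 8 glucocorticoid response genes were lower. Dusp1, a phosphatase gene, was at 142, 179 and 166 CPM in f/f and at 54.3, 49.3 and 41.9 CPM in MKO livers, a log2 fold change of -1.74 ± 0.14 (adjusted p = 0.063, edgeR). Sgk1 (-1.04 ± 0.22), Klf9 (-0.50 ± 0.14) and Tat (-0.58 ± 0.19) were lower too, and the groups did not overlap for any of these 4 genes. Hypoxia response genes in livers were split, with Ankrd37 (1.71 ± 0.45), Egln3 (0.46 ± 0.19) and Pdk1 (0.65 ± 0.26) higher and Slc2a1 (-0.56 ± 0.22) lower. Of 4 inflammatory genes tested in livers, Il1a (1.08 ± 0.36) and Cxcl10 (1.10 ± 0.40) were higher, at a summed level of 9.27 to 19.96 CPM for the whole list.

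**Figure D5:**
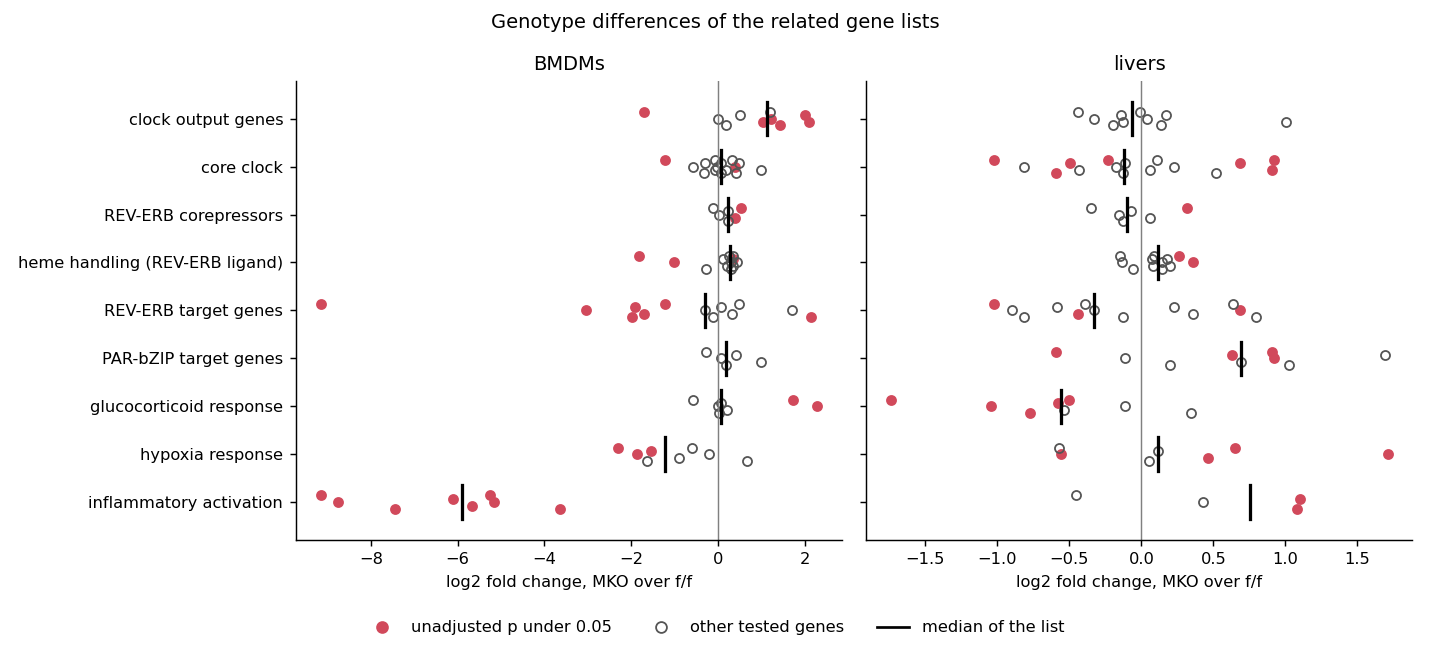
Log2 fold change of MKO over f/f for every tested gene of the clock output genes and of 8 related lists, in BMDMs (left) and livers (right), whose horizontal scales differ. Filled points passed an unadjusted p under 0.05 in edgeR and bars are list medians, 1.13 for the clock output genes and -5.89 for the inflammatory list in BMDMs.

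Over the 6 livers, the genes whose log2 CPM followed Nr1d1 most closely were Thrb (Pearson r = 0.993), a thyroid hormone receptor gene, Elp2 (0.983) and Rad52 (0.976), and those that followed Dbp most closely were Bclaf1 (0.995), Fbxo7 (0.990) and Gsta2 (0.985). They were the highest of 11973 genes ranked, with a mean of at least 50 counts, over 6 libraries of both genotypes. The coefficients describe these livers, and no member is among the genes named because members were left out of the ranking.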

How the data were processed

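Strand-specific libraries were sequenced on a NovaSeq instrument, and the authors deposited raw read counts per gene, which is the unit used here. FastQC 0.11.2 was run on the reads, and the submitters' processing notes list STAR, StringTie and the mm10 build. The counting program and its use of strand are not given in the sources used here. Genotypes were compared within each tissue with edgeR 4.0.16 in R 4.3.3 (filterByExpr, TMM factors, robust quasi-likelihood fits), with Benjamini-Hochberg adjustment over all genes tested, and tissues and the genotype by tissue difference in a fit of all 12 libraries. The study itself applied the MARS model of DEGseq to its counts, which takes no account of the spread between replicates and served as an alternative, as did DESeq2 1.42.0. SEs were derived from each log2 fold change and its F statistic (absolute change / √F). Exon lengths and positions came from GENCODE M21 (GRCm38) and promoters from RefSeq (GRCm38.p6). Figures used matplotlib 3.10.9.

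The members and all lists were chosen with earlier results of these data known. The genes named are the 10 members, from each related list at most the 4 with the lowest unadjusted p under 0.05 per tissue, and the 3 genes most like Nr1d1 and Dbp over the livers. A few genes outside this rule (Arntl in BMDMs, Lpl, Ccl2, the macrophage markers, Thra, Sphk2, Gm49380, Gprc5c) were named after their values were seen. Some genes that the rule selects are not reported here. Depth was 28962878 to 40954211 counts per library.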

Additional observations from a re-analysis of the deposited data

How the results depend on the processing

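In BMDMs, the number of members that were higher at an unadjusted p under 0.05 was 4 to 6 under every alternative run, against 5, and none of those 5 changed direction. The number that were lower was 0 to 1 when libraries were left out, and 0 to 1 with a fold of 2, where the higher ones numbered 3 to 6. With the study's MARS model and a fold of 2, 6 were higher and 1 lower, as were 7.57% and 5.71% of all genes. At an adjusted p under 0.05 the higher members numbered 5 with DESeq2 and 2 with all 12 libraries, where 65 of 17246 genes were higher. Bhlhe40, near 0, turned to -0.01523 (log2) with RLE factors and -0.01534 with DESeq2, and spanned -0.20 to 0.55 when libraries were left out. In livers, the members higher at an unadjusted p under 0.05 numbered 1 with DESeq2, 1 with the letter of the sample ID as a factor and 0 to 3 when libraries were left out, and those lower 0 to 1. With a fold of 2 the higher ones numbered 1 with the letter and 0 to 1 when libraries were left out. Nr1d1 in livers turned to 0.00372 with no filter, 0.0009333 with all 12 libraries, 0.007033 with the replicate block and 0.18 with the letter, and Usp2 and Ciart to 0.01437 and 0.28 with the letter. Leaving out each liver moved Nr1d1 over -0.20 to 0.14, Usp2 over -0.46 to 0.50, Ciart over -0.88 to 0.62, Bhlhe40 over -0.27 to 0.06367, Nr1d2 over -0.12 to 0.15, Tef over -0.002922 to 0.40 and Bhlhe41 over -0.03514 to 0.38. Between tissues 7 to 8 members were higher and 1 lower throughout, and Nfil3 was at 0.82 within MKO. For the genotype by tissue difference, 2 members were negative at an adjusted p under 0.05 with DESeq2 and 0 to 1 when libraries were left out, and at an unadjusted p under 0.05 the positive ones numbered 1 with the replicate block within tissue and 0 to 1 when libraries were left out. With the liver genotype headings turned, an alternative chosen after seeing the data, 5 members were negative and 1 positive at that p, and Bhlhe40 turned to 0.10. Left-out ranges were -0.69 to 0.10 for Bhlhe40, -0.32 to 0.21 for Bhlhe41 and -1.40 to 0.10 for Ciart. The cause of these shifts was not tested. Replicate numbers were shared between genotypes without a label that pairs them, and deviations of same-numbered libraries correlated at 0.03 to 0.14 in BMDMs and -0.07 to 0.25 in livers, so that not every library matched its own number best. With the replicate block, 5 members were higher and 1 lower in BMDMs and 0 in livers, as without it.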
